A study of Mus musculus with 6 samples.

Results

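The endolymph potassium recycling genes are 8 genes, Slc12a2, Kcnj10, Kcnq1, Kcne1, Atp1b2, Gjb2, Gjb6 and Slc26a4, taken by symbol because of their roles in the ion transport of the inner ear. After the Ensembl transcripts of the count table had been matched to genes, 7 of these 8 symbols had a row among 33676 genes, and 6 of them had enough counts to be tested. No transcript of Kcne1 was listed, so that Kcne1 was not analysed here. RNA was measured in the cochlear modiolus of C57BL/6 mice, the axis of bone around which the cochlea winds and in which the spiral ganglion neurons (SGNs) lie, with 3 libraries labelled control and 3 labelled degenerated. Per the study's methods, degeneration was induced at an age of 8 weeks with 1 g/kg kanamycin sulfate given subcutaneously and, 30 min later, 0.4 g/kg furosemide given intraperitoneally, control mice received saline, and the tissue was taken on day 30. The labels give no transgene or deletion for either group. Kanamycin is an aminoglycoside that kills hair cells, and furosemide is a loop diuretic that acts on the stria vascularis and is known to inhibit the cotransporter encoded by Slc12a2, 1 of the genes described here. The sources used here do not give how many mice went into a library, so that the p-values measure the spread between these libraries.

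Endolymph, the fluid over the hair bundles, is rich in potassium, and the current that flows through hair cells on sound is carried by it. Potassium that leaves hair cells is taken up by supporting cells and fibrocytes, passes from cell to cell through gap junctions and is returned to endolymph by the stria vascularis in the lateral wall of the cochlea. At the last step the marginal cells of the stria take up potassium through the cotransporter Slc12a2 and the sodium pump and release it through the Kcnq1/Kcne1 channel, while the channel Kcnj10 in the intermediate cells sets up the voltage of the endolymph. Kcnj10 is also expressed by satellite glial cells around SGNs and by supporting cells of the organ of Corti, Gjb2 and Gjb6 by supporting cells and by fibrocytes of the spiral ligament, and Slc26a4 by spindle and outer sulcus cells. Loss of most of these genes causes deafness.

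The labels name SGNs as the cell type, but the tissue is a dissected modiolus, and the libraries also held RNA of glia, lateral wall, supporting cells and bone. Libraries contained 12480876 to 15549319 counts, and counting error is therefore small for all but the rarest genes named below. Values are CPM, counts per 1000000 counts of the library, normalised by the trimmed mean of M values (TMM). A gene was called when edgeR's quasi-likelihood test gave an unadjusted p under 0.01 together with an absolute log2 fold change (degenerated over control) above 0.2, the criteria that the study states for its own comparison of knockout with wild-type mice. By these criteria 385 of 14118 tested genes (2.73%) were called, 284 higher and 101 lower. At a Benjamini-Hochberg adjusted p under 0.05, 0 genes passed edgeR's test, although 1367 had an unadjusted p under 0.05 and 317 passed in DESeq2. Among hair cell markers Ocm, the calcium-binding oncomodulin of outer hair cells, fell from a mean of 154 CPM in the control group to 2.69 CPM in the degenerated group.

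Promoter sequences are shown for Kcnj10 and Gjb2, the members in which the groups did not overlap. The 250 bases before the RefSeq start of each gene (GRCm38.p6) are printed 5′ to 3′ on the strand of the gene. Capitals mark matches on either strand to the GC box (GGGCGG), the CCAAT box (CCAAT) and the TATA box (TATAAA), which did not overlap each other. Kcnj10 lies on the plus strand, with the window at chr1:172340960-172341209, and Gjb2 on the minus strand, with the window at chr14:57104703-57104952.
Kcnj10: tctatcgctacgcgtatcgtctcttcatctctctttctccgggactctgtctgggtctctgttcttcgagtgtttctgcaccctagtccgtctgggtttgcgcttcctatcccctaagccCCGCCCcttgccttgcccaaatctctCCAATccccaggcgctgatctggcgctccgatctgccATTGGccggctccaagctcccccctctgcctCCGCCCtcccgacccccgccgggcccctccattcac
Gjb2: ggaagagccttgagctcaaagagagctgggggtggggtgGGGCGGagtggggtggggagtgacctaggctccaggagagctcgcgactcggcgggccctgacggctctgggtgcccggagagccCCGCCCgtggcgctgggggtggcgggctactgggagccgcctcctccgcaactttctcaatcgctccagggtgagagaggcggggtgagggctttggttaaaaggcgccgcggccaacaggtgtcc
The Kcnj10 window held 2 GC boxes, 2 CCAAT boxes and 0 TATA boxes, at a GC content of 62.0%. In the Gjb2 window there were 2 GC boxes, 0 CCAAT boxes and 0 TATA boxes, at a GC content of 69.2%. Among all 32851 windows of this length, 32.7% held a GC box, 33.8% a CCAAT box and 12.4% a TATA box. The window of Gjb6 held none of these motifs, and that of Slc26a4 held 1 TATA box.

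Kcnj10 encodes Kir4.1, an inwardly rectifying potassium channel that clears potassium around neurons and in the stria generates the endocochlear potential. It lies at chr1:172341210-172374085 (plus strand, GRCm38), and its only annotated transcript was listed. Kcnj10 had 480.3, 361.0 and 379.8 CPM in control replicates 1, 2 and 3, and 702.3, 812.2 and 651.5 CPM in degenerated replicates 1, 2 and 3. All 3 degenerated libraries lay above all 3 control libraries. The mean in control libraries was 407 ± 64.2 CPM (SD, n = 3) and that in degenerated libraries 722 ± 82.1 CPM (SD, n = 3), a 1.77-fold difference. Kcnj10 was the only member called higher, with a log2 fold change of 0.83 ± 0.15 (SE) and an unadjusted p of 0.0016 in edgeR's test. Its adjusted p over all genes was 0.256. An exact two-sided permutation test of the CPM values gave p = 0.1, the smallest p that 3 libraries against 3 allow. Thus 1 of 6 tested members was called higher, where 2.01% of all tested genes were, and 0 of 6 lower, where 0.715% were, while 8.62% of all tested genes had a larger log2 fold change than Kcnj10. In bulk tissue a change in RNA per cell and a change in the share of cells that express a gene cannot be told apart, which holds for every gene described here.

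**Figure D1:**
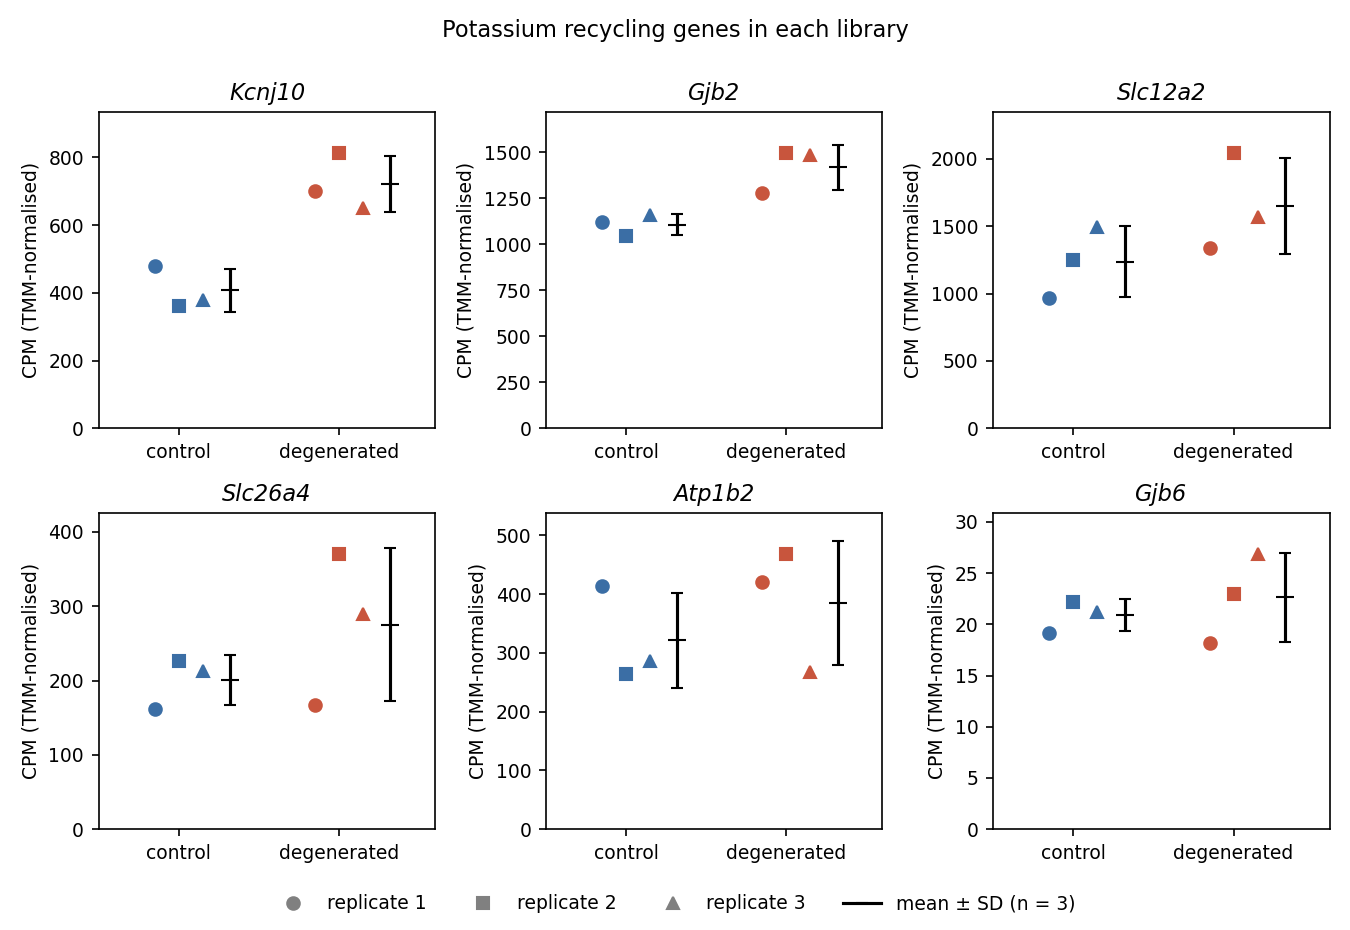
TMM-normalised CPM (vertical axes, from 0) of the 6 tested members in the control (blue) and degenerated (red) libraries. Points are libraries, with the replicate number as the symbol, and bars are mean ± SD of 3 libraries. The groups do not overlap for Kcnj10 and Gjb2 and overlap for the other members.

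Gjb2 encodes connexin 26, a subunit of the gap junctions that link supporting cells and fibrocytes, and lies at chr14:57098600-57104702 (minus strand, GRCm38). Counted through its only annotated transcript, Gjb2 had 1121, 1042 and 1158 CPM in the control replicates and 1277, 1494 and 1483 CPM in the degenerated replicates. Here too every degenerated library lay above every control library, but the highest control library and the lowest degenerated library were close. The mean in control libraries was 1107 ± 58.9 CPM (SD, n = 3) and that in degenerated libraries 1418 ± 122 CPM (SD, n = 3). The log2 fold change of 0.36 ± 0.11 (SE) did not meet the criteria in edgeR's test (unadjusted p = 0.0186, adjusted p = 0.417). Among all tested genes, 10.3% had all degenerated libraries above all control libraries, compared with 2 of the 6 tested members.

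Gjb6 encodes connexin 30, the partner of connexin 26 in many cochlear gap junctions, and lies next to Gjb2 at chr14:57123303-57133611 (minus strand). Control replicates had 19.2, 22.2 and 21.2 CPM and degenerated replicates 18.1, 23.0 and 26.8 CPM. The lowest and the highest of these 6 values were both in the degenerated group. The log2 fold change of Gjb6 was 0.12 ± 0.22 (SE), with an unadjusted p of 0.622 in edgeR's test. Of its 4 annotated transcripts 2 were listed, and Gjb6-201, which carries the whole coding sequence of 783 bases, was not among them. The counts of Gjb6 came to 74.2% from Gjb6-202, a shorter transcript with an incomplete coding sequence of 521 bases, so that the level of Gjb6 is that of its listed part. The coding sequences of Gjb6 and of the abundant Gjb2 were compared for exact shared stretches. The longest stretch they shared was 20 bases, starting at base 214 of both coding sequences (chr14:57100517-57100536 in Gjb2 and chr14:57124570-57124589 in Gjb6):
Gjb2 and Gjb6: tctcacatccggctctgggc
No word of 25 bases in the coding sequence of Gjb2 (0 of 654) was found in that of Gjb6. Matches with mismatches and bases outside the coding sequences were not compared. Whether reads of Gjb2 were placed on Gjb6 was therefore not tested.

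Slc12a2 encodes NKCC1, the cotransporter that brings sodium, potassium and chloride into strial marginal cells, and lies at chr18:57878678-57946821 (plus strand). It had 966.9, 1250.5 and 1494.9 CPM in control replicates and 1340.7, 2040.9 and 1565.9 CPM in degenerated replicates. The highest control library exceeded the lowest degenerated library, so that the groups overlapped. With means of 1237 ± 264 CPM (SD, n = 3) and 1649 ± 357 CPM (SD, n = 3), the log2 fold change was 0.41 ± 0.22 (SE), and it did not meet the criteria in edgeR's test (unadjusted p = 0.113, adjusted p = 0.614). Leaving out 1 library at a time moved this value between 0.22, without degenerated replicate 2, and 0.56, without control replicate 3.

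Atp1b2 encodes a beta subunit of the sodium pump that is found in glia and in the stria, and lies at chr11:69599736-69605942 (minus strand). Its values were 414.4, 264.3 and 285.7 CPM in control replicates and 420.3, 468.0 and 266.8 CPM in degenerated replicates. Degenerated replicate 3 lay within the control range and degenerated replicate 1 close to its upper end. The log2 fold change of Atp1b2 was 0.26 ± 0.27 (SE), with an unadjusted p of 0.373 in edgeR's test. Almost all of its counts (99.0%) were assigned to Atp1b2-202, annotated as a processed transcript without a coding sequence. Of the 3751 bases of Atp1b2-202, 76.9% lie in exons of coding transcripts of the gene, and the transcript with the full coding sequence, Atp1b2-201, was not listed.

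Slc26a4 encodes pendrin, an anion exchanger that secretes bicarbonate into endolymph, and lies at chr12:31519827-31559969 (minus strand). Control replicates had 162.3, 226.7 and 212.8 CPM and degenerated replicates 166.5, 369.9 and 289.5 CPM. The first library of each group had nearly the same level, whereas degenerated replicates 2 and 3 exceeded all control libraries. The log2 fold change was 0.46 ± 0.31 (SE), with an unadjusted p of 0.187 in edgeR's test. Without degenerated replicate 1 it was 0.70 with an unadjusted p of 0.0156, which still missed the criteria, and without degenerated replicate 2 it was 0.18.

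Kcnq1 and Kcne1 encode the pore and the accessory subunit of the channel through which marginal cells secrete potassium. Of 7 annotated Kcnq1 transcripts, which span chr7:143106362-143427042 (plus strand), only 1 was listed, a transcript of 282 bases with 118 coding bases. It received 2, 0 and 1 counts in control replicates and 0, 0 and 2 counts in degenerated replicates. These counts were below the filter for testing, and they give no measure of Kcnq1 as a gene, whose other transcripts were not analysed here. Kcne1 lies at chr16:92345982-92359468 (minus strand), and its 2 annotated transcripts were not analysed here.

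For a comparison of levels between members, CPM were divided by the length of each listed transcript and added up per gene. On this scale of CPM per kilobase, Gjb2 had the highest level in both groups, with a mean of 460 (range 433 to 481) in control and 589 (range 531 to 621) in degenerated libraries. Slc12a2 followed with 190 (range 148 to 229) and 253 (range 206 to 313) CPM per kilobase, and its range overlapped neither that of Gjb2 nor that of the next gene in either group. Next in control libraries came Atp1b2 with 88.9 (range 73.8 to 115), Kcnj10 with 75.3 (range 66.8 to 88.8) and Slc26a4 with 66.7 CPM per kilobase (range 54.7 to 74.9), whose ranges overlapped from each to the next. In degenerated libraries Kcnj10 had 134 CPM per kilobase (range 120 to 150), Atp1b2 107 (range 74.5 to 129) and Slc26a4 95.1 (range 55.1 to 132). The mean of Kcnj10 was thus below that of Atp1b2 in control and above it in degenerated libraries, but their ranges overlapped in both groups. Gjb6 had the lowest level of the tested members, at 44.4 (range 38.1 to 48.4) and 47.0 CPM per kilobase (range 44.2 to 50.7). Its range did not reach that of Slc26a4 in either group. Short transcripts weigh more on this scale, and Gjb6-203, of 201 bases, held 25.8% of the Gjb6 counts. For Gjb6, degenerated replicate 1 was lowest in CPM (18.1) but highest per kilobase (50.7). The full coding transcripts Gjb6-201 and Atp1b2-201 were not listed, so that the places of Gjb6 and Atp1b2 hold only for their listed parts.

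The 6 tested members were all higher in degenerated libraries by the sign of the log2 fold change, with a median of 0.39, while the median over all tested genes was -0.0034 and 49.7% of these were above 0. The sign of Gjb6 turned when degenerated replicate 3 was left out. Only Kcnj10 was called, and its adjusted p in edgeR's test was 0.256.

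Of 24 annotated transcripts of the 8 genes, 12 were listed and 10 had enough counts to be tested among 26065 transcripts. Kcnj10-201 was the only one called higher, where 1.14% of all tested transcripts were, and 0 were called lower, where 0.652% of all were (1.79% in either direction). Its log2 fold change was 0.78 ± 0.15 (SE), and its adjusted p in edgeR's test was 0.392 (unadjusted p = 0.0022). All degenerated libraries lay above all control libraries in 2 of the 10 transcripts, Kcnj10-201 and Gjb2-201, compared with 9.13% of all tested transcripts. No member transcript was among the 4 transcripts (0.0153%) that passed at an adjusted p under 0.05. This call was lost without control replicate 3 (unadjusted p = 0.0105). Gjb2-201, with a log2 fold change of 0.31 ± 0.09 (SE) and an unadjusted p of 0.0154 in edgeR's test, missed the criteria and met them only without degenerated replicate 1 (unadjusted p = 0.00955). Slc12a2-201 had a log2 fold change of 0.37 ± 0.21 (SE), and Slc26a4-201, the coding transcript that held 99.4% of the counts of Slc26a4, had 0.40 ± 0.31 (SE). Neither met the criteria.

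The remaining transcripts had few counts or wide errors, and none was called. Slc26a4-202, a processed transcript of 385 bases, had 13, 7 and 8 counts in control replicates and 6, 71 and 25 counts in degenerated replicates. Its log2 fold change of 1.92 ± 0.90 (SE, unadjusted p = 0.0795 in edgeR's test) rested mainly on degenerated replicate 2, without which it was 0.89 (unadjusted p = 0.33), and the lowest of the 6 counts was also in the degenerated group. The 3 tested transcripts of Atp1b2 had log2 fold changes of 0.21 ± 0.28 (Atp1b2-202), 0.09 ± 0.41 (Atp1b2-204) and 0.85 ± 0.48 (Atp1b2-205; SE in each case). For Gjb6 the log2 fold change was 0.10 ± 0.39 (SE) in Gjb6-202 and -0.0004 ± 0.46 (SE) in Gjb6-203. Atp1b2-203 had 1 to 14 counts per library and was not tested.

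**Figure D2:**
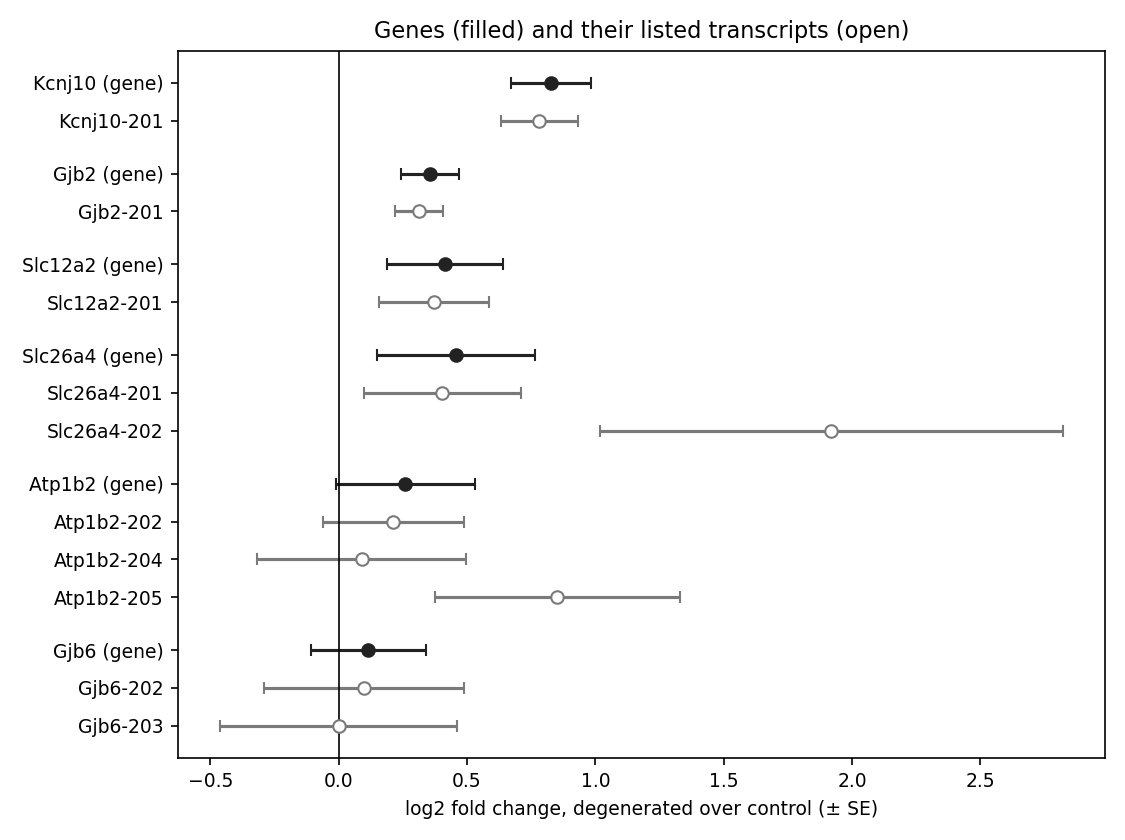
Log2 fold change of degenerated over control libraries (horizontal axis, bars are ± SE) for each tested gene (filled) and its tested transcripts (open). Kcnj10 and Kcnj10-201 lie at 0.83 and 0.78, and the widest error is that of Slc26a4-202.

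The other steps of potassium handling were followed in 29 further genes, of which 26 had a row and 19 were tested. By the sign of the log2 fold change 13 were higher and 6 lower, with a median of 0.19. All degenerated libraries lay above all control libraries in 4, where 10.3% of all tested genes had this. In 1, Kcnn2, all of them lay below (log2 fold change -0.12), and the share of all tested genes with this was not computed. Of these 19 genes 0 were called in edgeR's test (3 with p under 0.05 before adjustment), where 2.73% of all tested genes were, and DESeq2 called 1, Wnk1. Genes of the list that are not reported here are outside these counts.

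In supporting cell uptake, 3 of 4 genes were tested, and none was called by edgeR's test or DESeq2 (1 had p under 0.05 before adjustment). Slc12a7, the potassium-chloride cotransporter KCC4 of supporting cells, had 315.6, 252.6 and 191.2 CPM in control replicates and 336.8, 493.1 and 419.3 CPM in degenerated replicates. Its groups did not overlap, but the log2 fold change of 0.72 ± 0.23 (SE) missed the criteria with an unadjusted p of 0.0197 in edgeR's test. Among the kinases that switch such cotransporters, Wnk1 had 175.0, 68.1 and 312.8 CPM in control replicates and 495.0, 499.4 and 481.3 CPM in degenerated replicates. Degenerated libraries were nearly equal and control libraries spread widely, and the log2 fold change of 1.41 ± 0.51 (SE) had an unadjusted p of 0.0336 in edgeR's test. Only 13 of the 26 annotated transcripts of Wnk1 were listed. Leaving out 1 library moved Wnk1 between 1.01 without control replicate 2 (unadjusted p = 0.0131 in edgeR's test) and 2.01 without control replicate 3 (unadjusted p = 0.00525), the only one of these fits that met the criteria, and in the others the unadjusted p was 0.0666 to 0.0845.

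Of the channels through which potassium leaves hair cells, Kcnma1, the BK channel, had 4.57, 3.04 and 2.74 CPM in control replicates and 6.16, 8.66 and 6.08 CPM in degenerated replicates. Its log2 fold change was 1.01 ± 0.35 (SE), which missed the criteria with an unadjusted p of 0.0259 in edgeR's test, and 8 of its 38 annotated transcripts were listed. Among the sodium pump subunits tested, Atp1b3, another beta subunit, had the smallest unadjusted p, with a log2 fold change of 0.49 ± 0.57 (SE) at about 1 CPM.

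In the remaining groups the gene with the smallest unadjusted p also missed the criteria in edgeR's test. Kcnj13, an inward rectifier, had a log2 fold change of 0.34 ± 0.33 (SE). Cldn11, the tight junction protein of strial basal cells, had a log2 fold change of 0.19 ± 0.13 (SE). Pou3f4, a transcription factor of spiral ligament fibrocytes, had 0.39 ± 0.24 (SE). No gene of endolymph acid-base transport had enough counts to be tested.

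**Figure D3:**
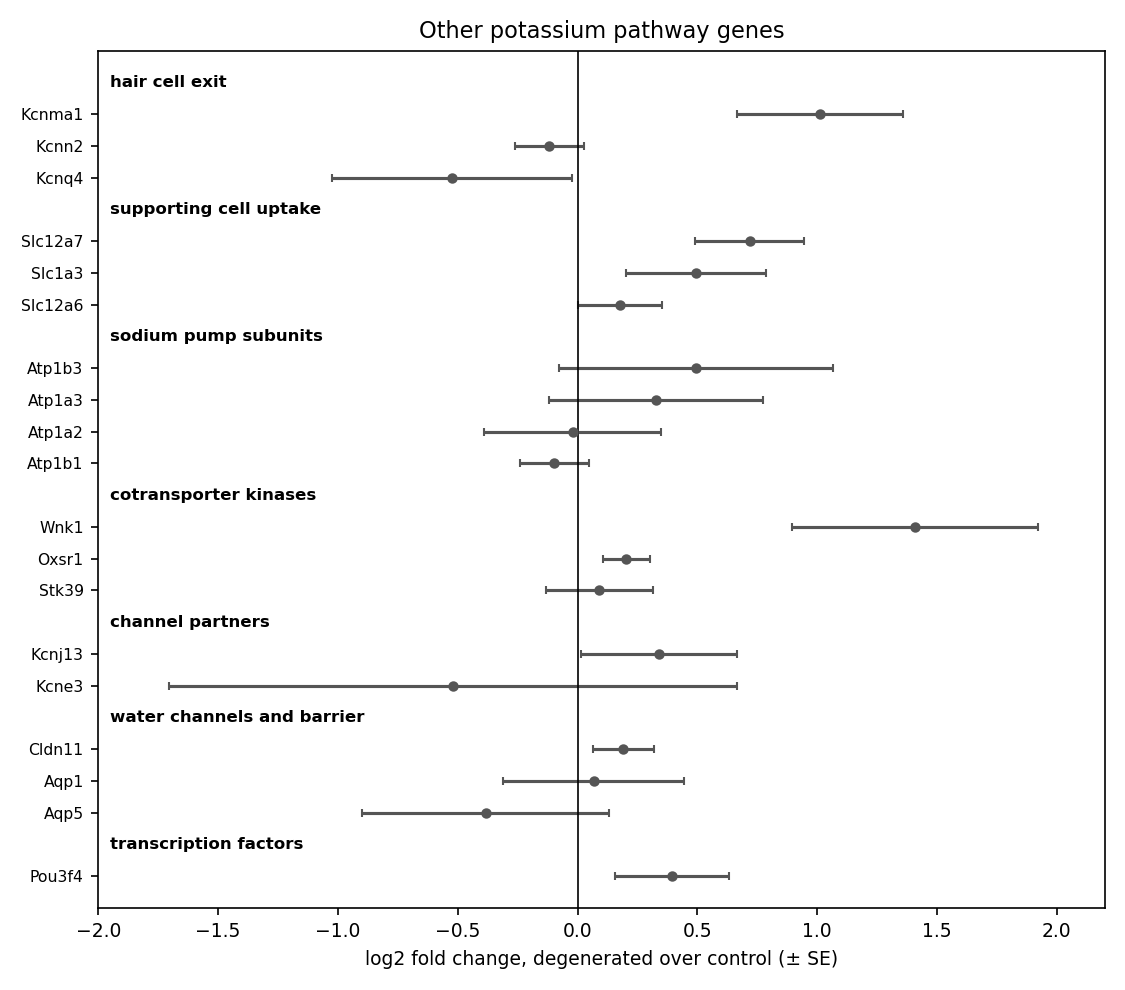
Log2 fold change of degenerated over control libraries (horizontal axis, bars are ± SE) for the 19 tested genes of the other steps of potassium handling, in their groups. None met the criteria on p and fold change, and Wnk1 at 1.41 and Kcnma1 at 1.01 lie farthest from 0.

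Strial markers did not vary together over the libraries, and replicate 1 of both groups was low in some of them and high in others. Lrp2, the endocytic receptor of marginal cells, had 120 and 134 CPM in control and degenerated replicate 1 and 398 to 670 CPM in the other 4 libraries, and Tyr, tyrosinase of the pigmented intermediate cells, had 11.8 and 15.6 CPM against 36.5 to 71.8 CPM. In contrast, Kcnj13 (39.6 and 46.8 CPM) and Tyrp1 (3.97 and 4.51 CPM), also on the intermediate cell list, were highest within each group in replicate 1, and Pmel and Mitf were not lowest there in either group. Slc12a2, Slc26a4 and Gjb6 were lowest within each group in these libraries, as Lrp2 and Tyr were. The part of strial content in their values was not tested. With both of these libraries left out, an alternative chosen after the data had been seen, the log2 fold change was 0.97 for Kcnj10 (unadjusted p = 0.0031), 0.43 for Gjb2, 0.39 for Slc12a2 and 0.58 for Slc26a4 in edgeR's test, of which only that of Kcnj10 met the criteria.

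Markers of the other cells in the tissue were summed over each list and compared with the members. Sums of the supporting and outer sulcus cell list did not overlap between the groups, at 2190 to 2457 CPM in control and 2502 to 3461 CPM in degenerated libraries. Most of each sum came from 1 gene, S100a1 (1533 to 1695 and 1695 to 2426 CPM), which was not called (unadjusted p = 0.0509 in edgeR's test). In this list 5 of 8 tested genes were higher and 3 lower by sign. Of the 8, 1 was called higher, where 2.01% of all tested genes were. This gene, Cdh1 (E-cadherin), had a log2 fold change of 0.48 ± 0.11 (SE, unadjusted p = 0.0044 in edgeR's test). Its call was lost without control replicate 2 or 3 or degenerated replicate 2 or 3 (unadjusted p of 0.0155 to 0.0198). Of the strial marginal cell markers reported here Lrp2 alone was tested, with a log2 fold change of -0.026, while Esrrb had too few counts to be tested and Bsnd had no row. Their sums were 121 to 561 CPM in control and 134 to 671 CPM in degenerated libraries. Intermediate cell markers summed to 75.0 to 90.8 and 89.5 to 258 CPM (69.9 to 82.9 and 70.0 to 119 CPM without Met, which had 139 CPM in degenerated replicate 2), with 0 of 6 tested genes called in edgeR's test (1 with p under 0.05 before adjustment, and 1 called by DESeq2), and Dct and Mlana had no row. Sums of the Schwann and satellite glia markers reported here overlapped, at 1302 to 2168 and 1375 to 2036 CPM, with 0 of 6 tested genes called in edgeR's test or in DESeq2 (0 at an unadjusted p under 0.05 in edgeR's test) and a median log2 fold change of 0.097. The satellite glia marker Fabp7 had too few counts to be tested. Fibrocyte markers summed to 2069 to 3102 and 2194 to 3253 CPM, and 1 of 4 tested, Otor, was called lower, where 0.715% of all tested genes were. The other 3, Coch, Car3 and Pou3f4, were higher by sign and not called. The part of these cells in the values of Kcnj10 and Gjb2 was not tested.

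The lists of cells without a main role in potassium recycling moved as follows. Among all tested genes, 2.01% were called higher and 0.715% lower. Hair cell markers summed to 503 to 720 CPM in control and 167 to 455 CPM in degenerated libraries, and Chrna9 had 0 counts in every library. By the criteria 2 of 7 tested genes, Ocm and Slc26a5, were lower. By sign 6 of the 7 were lower and 1, Myo7a, was higher. Otof, Tmc1 and Pou4f3 were not called, and their values overlapped between the groups. Neuron markers summed to 11895 to 15266 and 6877 to 10333 CPM, and 9 of 11 tested genes were lower by sign. In edgeR's test 7 of these 11 genes had p under 0.05 before adjustment, and 2, Calb2 and Pvalb, were called lower. Macrophage markers summed to 425 to 498 and 531 to 664 CPM, and 2 of 5 tested, the complement genes C1qb and C1qc, were called higher. By sign 3 of the 5 were higher and 2, Cd68 and Ptprc, were lower and not called. Bone markers summed to 505 to 910 and 208 to 399 CPM, and 2 of 4 tested, the osteocalcin genes Bglap and Bglap2, were called lower. Skeletal muscle markers summed to 472 CPM in control replicate 3 and to 3.38 to 8.41 CPM in the other libraries, with 0 of 2 tested genes called in edgeR's test (0 with p under 0.05 before adjustment, and 1 called by DESeq2).

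**Figure D4:**
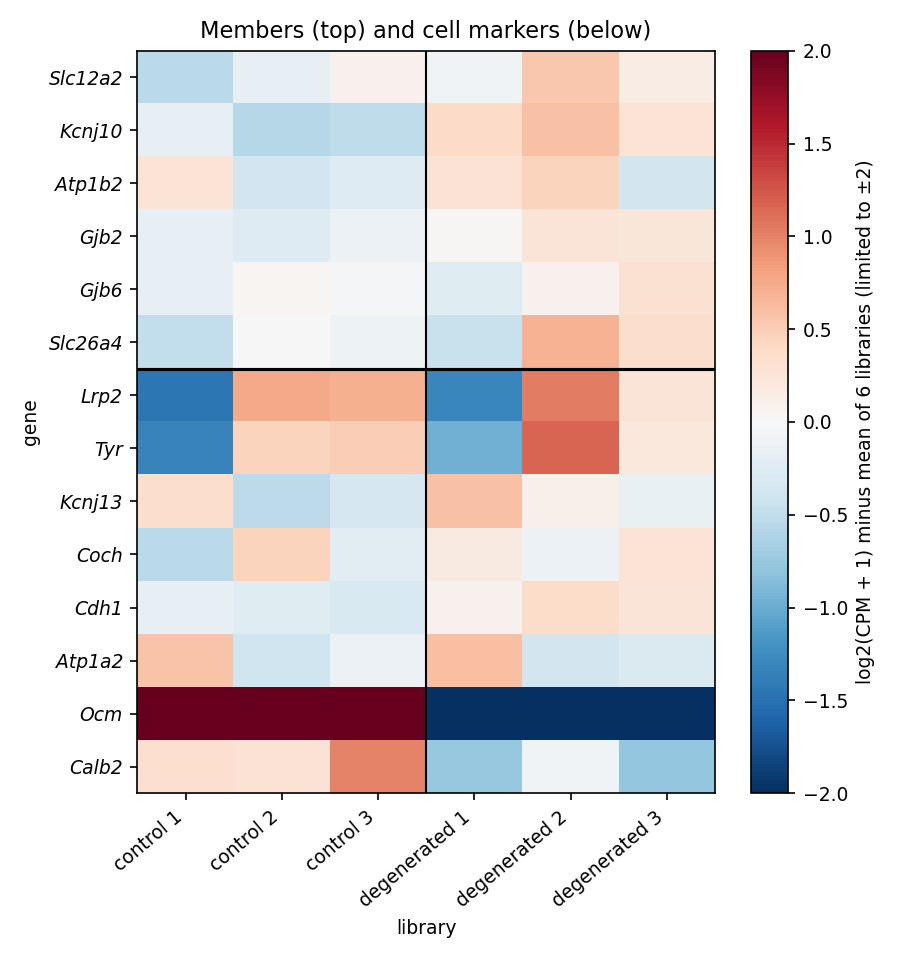
Log2(CPM + 1) of each gene minus its mean over the 6 libraries (colour, limited to 2 in either direction) for the tested members (above the line) and for cell markers (below). Lrp2 and Tyr are low and Kcnj13 is high in replicate 1 of both groups, Kcnj10 is low in control and high in degenerated libraries, and Ocm does the opposite.

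Across the 6 libraries the members did not vary as 1 block. As a description over 6 libraries that share their group difference, the Pearson r of log2(CPM + 1) was highest for Kcnj10 with Gjb2 (0.883) and for Slc12a2 with Slc26a4 (0.866), and lowest for Atp1b2 with Gjb6 (-0.541), among 15 pairs. Among 8423 genes with a mean of at least 10 CPM, those most like Kcnj10 were Bag3 (r = 0.995) and Magi3 (r = 0.994), and those most like Gjb2 were Arfgef1 (r = 0.997) and Dsp (r = 0.996). For Slc12a2 they were Spg21 (r = 0.9996) and Ier5 (r = 0.981), and for Slc26a4 Hif1a (r = 0.990) and Ndrg3 (r = 0.983). Those most like Atp1b2 were Il1rap (r = 0.994) and Cep85l (r = 0.991), and those most like Gjb6 were Proser2 (r = 0.984) and Kdm2a (r = 0.979).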

How the data were processed

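Total RNA of the cochlear modiolus was sequenced on Illumina instruments after library preparation with a TruSeq kit. The authors aligned the reads with Hisat2 (version 2.1.0) and evaluated expression with StringTie (version 1.3.3b) per the study's methods, while the submitters' processing notes name Bowtie 0.12.2 and the builds mm8 and mm10. In the sources used here, neither the annotation nor the counting step is stated. The authors deposited 1 table of raw counts per Ensembl transcript, without normalization, which lists 65535 transcripts. With its header line this fills the rows of an older spreadsheet format, so that the table may have been cut, and CPM are relative to the counts of the listed transcripts. Of these, 65272 (99.6%) matched GENCODE M21 (GRCm38) and were summed per gene, and 263 with 0.125% of the counts were left out. Every annotated transcript was listed for 17789 of 33676 genes, so that the counts of many genes cover a part of their transcripts, and a read shared with an unlisted transcript may have been assigned to a listed one. The exons of the members' listed transcripts overlap no other gene (0 bases).

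Genes and, separately, transcripts were tested with edgeR 4.0.16 (filterByExpr, TMM factors of 0.983 to 1.02 for genes, robust quasi-likelihood fit) with limma 3.58.1 in R 4.3.3, without covariates. P-values were adjusted over all 14118 genes or 26065 transcripts tested. The SE is the log2 fold change over the square root of F. Steps were tested on simulated data. Alternatives were DESeq2 1.42.0, upper-quartile or RLE normalization, a filter at a mean count of 10 or none, the replicate number as a block, each library left out, the most counted transcript alone and, added later, both libraries numbered 1 left out.

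The genes and lists were chosen with earlier results of these data known. Named are all members and their tested transcripts, called genes or the gene with the smallest p in each of 10 potassium groups, called genes and the most abundant gene of 10 marker lists where they bear on a member, and the 2 genes most like each tested member. Names given beyond these were chosen after their values were seen. Promoters are from RefSeq, where 4 members were read. Results for some listed genes are not reported here, and the counts and sums of the lists leave these genes out. Results of DKO mice, hearing tests and histology were not used here.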

Additional observations from a re-analysis of the deposited data

How the results depend on the processing

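Over the alternatives, the 6 tested members gave 84 fits, of which 83 kept the direction and the side of the criteria and 1 turned, Gjb6 at -0.026 without degenerated replicate 3 (-0.026 to 0.24 over the libraries left out). Kcnj10 was called in every one of its 14 alternatives, at 0.73 to 0.95 over the libraries left out, with an adjusted p between 0.0174 in DESeq2 and 0.602 with the replicate block. The count of called member genes was 1 throughout, and that of member transcripts 0 to 2 over the libraries left out. Over the same fits Gjb2 lay at 0.31 to 0.42, Slc12a2 at 0.22 to 0.56, Slc26a4 at 0.18 to 0.70 and Atp1b2 at 0.08 to 0.47. In DESeq2, 465 genes were higher, 310 were lower and 317 passed an adjusted p of 0.05, and it called 1 gene of the potassium list, Wnk1. Leaving out 1 library gave 144 to 339 genes higher, 76 to 158 lower, 0 to 3 passing edgeR's test after adjustment, 0 to 1 of the potassium list and 3 to 8 of the marker genes, against 284, 101, 0 (1367 at an unadjusted p under 0.05), 0 and 10 with all libraries. With both libraries numbered 1 left out, chosen after the data had been seen, 1 gene of the potassium list, Slc12a7, and 4 marker genes were called. The transcripts that turned were Atp1b2-204 (-0.16 to 0.26 over the libraries left out, below 0 without control replicate 3), Gjb6-202 (-0.20 to 0.37, below 0 without control replicate 1 or degenerated replicate 3) and Gjb6-203 (-0.32 to 0.23, above 0 without control replicate 1 or 3 or degenerated replicate 2 or 3, 0.051 with upper-quartile normalization and 0.0012 with the stricter filter). The causes were not tested.

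With the replicate number as a block (replicate block), 160 genes were higher and 58 lower, 7 marker genes were called, and Kcnj10 kept its call at 0.83. Same-numbered libraries correlated at 0.158, -0.0824 and 0.0738 in their deviations from the group means over 8424 genes. Control replicates 1 and 3 were most like the degenerated library of the same number, whereas control replicate 2 was most like degenerated replicate 3 (0.229). Whether same-numbered libraries share more than a number was not tested. The edgeR fit had a biological coefficient of variation of 0.488 for genes, which with 3 libraries a group limits the differences that can be seen, and the table holds only a part of the transcripts of Kcnq1, Atp1b2 and Gjb6.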
